A study of Mus musculus with 6 samples.

Results

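The transcripts described here are 10 genes whose products damp or carry out signalling through the kinase ERK: the phosphatase genes Dusp1, Dusp4, Dusp5 and Dusp6, the Sprouty genes Spry1, Spry2 and Spry4, the ETS transcription factor genes Etv4 and Etv5, and Phlda1. They were taken by name, and every probe set that the platform annotation assigned to exactly 1 of them was used, which gave 17 probe sets of 45037 (10 of 18193 named genes). The rule itself uses no measured value. The samples came from mouse C2C12 myoblasts, an established line that divides as muscle precursors, with an integrin alpha7 construct under tetracycline control. All were grown without differentiation over 36 h, in medium with 20% fetal bovine serum and 0.5% chick embryo extract. The noninduced group (3 arrays) had no tetracycline, and the induced group (3 arrays) had 1 µg/ml. The question was how raising integrin alpha7, a subunit of a laminin receptor of muscle, affects transcription in myoblasts. The labels give no description of the construct's promoter or sequence and do not say whether the line is a single clone. Cells without the construct were not analysed here, so tetracycline itself and the construct cannot be told apart.

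Growth factor receptors and integrins activate ERK through Ras, RAF and MEK, and serum in the medium is a strong stimulus of this cascade. Active ERK switches on genes that feed back on it. The DUSP phosphatases remove the activating phosphates from MAP kinases, DUSP5 and DUSP6 preferring ERK, while DUSP1 and DUSP4 also act on JNK and p38. Sprouty proteins restrain signalling between the receptor and Ras or RAF. ETV4 and ETV5 are ETS factors that carry the transcriptional output of receptor tyrosine kinases, FGF receptors above all, and PHLDA1 is a pleckstrin-homology protein whose transcript follows ERK activity in many cells. In myoblasts, ERK signalling supports proliferation, and Spry1 is known for its part in the quiescence of muscle stem cells.

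Each array gave a scaled linear signal per probe set, with 3 arrays a group setting the precision. Over all probe sets the median lay between 24.99 and 27.73 on the noninduced arrays and between 22.89 and 24.9 on those labelled induced. The series describes the 3 samples of a condition as separate biological samples. Fluidics runs were inferred from gaps between the recorded hybridization times. By these, the first fluidics run held all noninduced arrays together with induced replicate 1, while induced replicates 2 and 3 went through another run later. Scanning also took the noninduced arrays first, so the order of scanning cannot be told apart from the group. The myoblast markers Myod1, Myf5 and Des gave mean signals of 805, 675 and 1306 on the noninduced arrays and 712, 736.5 and 1369 on those labelled induced. For Myod1 the groups did not overlap, with induced the lower (log2 -0.17, limma adjusted p = 0.258), as in 10.6% of all tested probe sets. For Myf5 and Des they overlapped. Of 6 myoblast markers, 5 lay above the signal filter of 22.6. The summed signal of those 6 was 5863 to 5990 on the noninduced arrays and 5545 to 5821 on those labelled induced. Markers of differentiated muscle summed to 279 to 362 and 299 to 335, with 3 of 7 above the filter, Myog among them at means of 42.8 and 32.9. Of the 5 leukocyte, 4 endothelial and 4 epithelial markers, 2, 1 and 2 lay above the filter, and of 2 adipocyte markers 0. Their summed signals on noninduced arrays and arrays labelled induced were 103.5 to 124.8 and 74.5 to 112.9 for leukocytes, 50.2 to 65.9 and 48.8 to 59.95 for endothelium, 97.2 to 131.5 and 102.8 to 119.1 for epithelium and 14.1 to 33.2 and 4.99 to 11.9 for adipocytes. No marker was at exactly 0, though the leukocyte gene Ptprc lay between 0.761 and 10.4 over the 6 arrays and the endothelial gene Pecam1 between 1.05 and 20.6, a pair named after their values were seen. In such bulk RNA, fewer cells of a type and less RNA per cell cannot be told apart. The part of these markers in the results was not tested. Itga7, the gene of the construct, did not stand higher in the group labelled induced: its signals were 811, 778 and 786 on noninduced replicates 1 to 3 and 675, 727 and 676 on induced replicates 1 to 3 (log2 fold change -0.19, limma adjusted p = 0.178). Every direction below therefore rests on the labels.

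No ERK feedback transcript passed the test between the groups, and Dusp4 was the single tested member whose groups did not overlap, 1.28-fold higher on the arrays labelled induced. Of the 17 probe sets, 12 lay above the signal filter and were tested, at least 1 for each of the 10 genes. In limma, 0 of the 12 passed an adjusted p of 0.05, where 0.2% of all 22518 tested probe sets did (0.12% higher and 0.0799% lower); the smallest adjusted p was 0.118, for Dusp4. At an unadjusted p under 0.05 in limma there were 2 of 12, against 14.7% of all tested probe sets: Dusp4 was higher, against 7.41%, and Dusp5 lower, against 7.27%. The groups did not overlap in 1 of 12, Dusp4, which was higher, against 20.3% of all in either direction, 9.64% higher and 10.6% lower. Log2 fold changes were positive for 5 and negative for 7 of the 12, with a median of -0.04, against -0.01 and 47.45% positive over all tested probe sets. For the 6 genes with a mean signal above 100 (Dusp1, Dusp4, Dusp5, Dusp6, Spry2 and Phlda1) the 95% intervals of the fold change all lay between 0.589 and 1.47, whereas the other 4 genes were dim and less precisely measured.

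**Figure D1:**
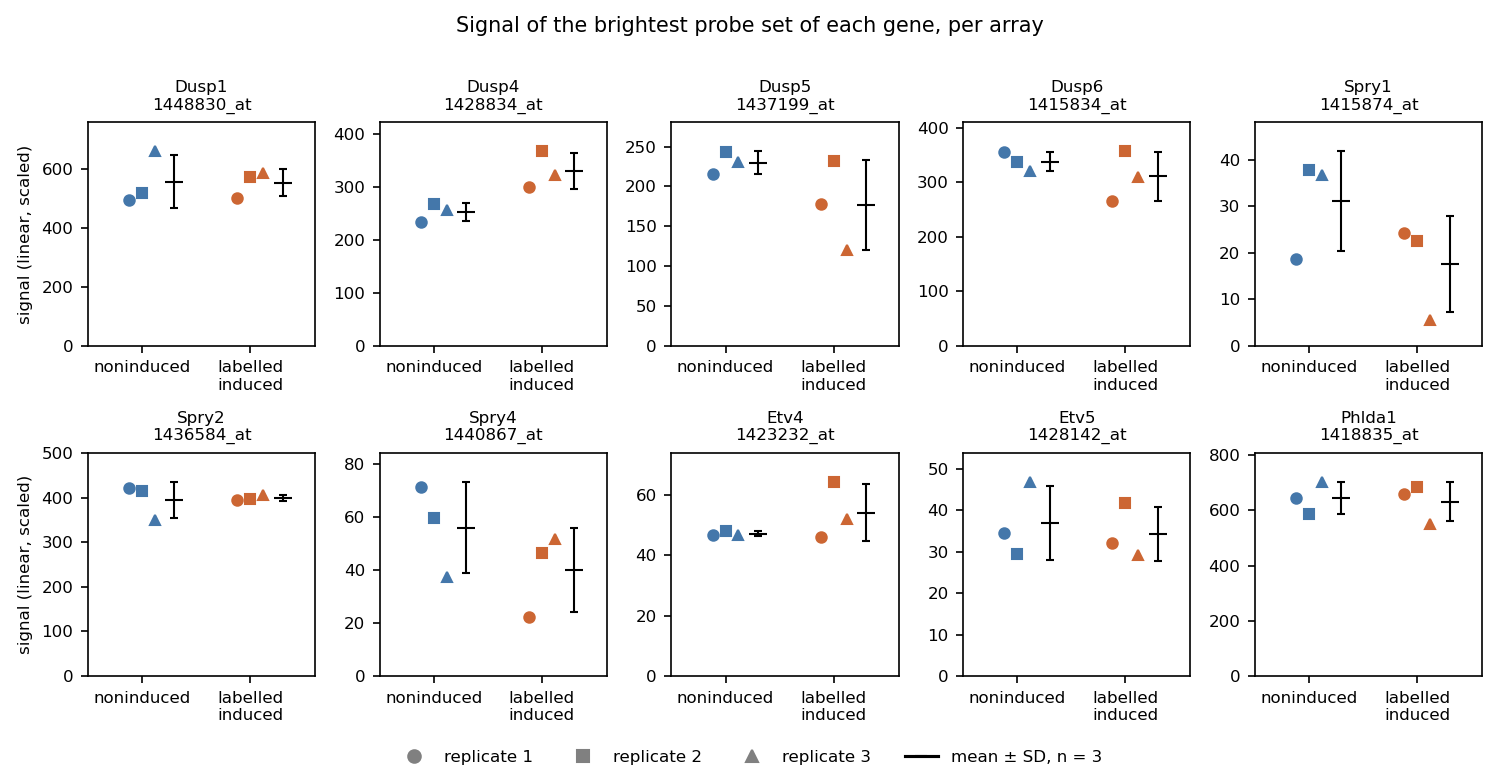
Linear scaled signal of the brightest probe set of each of the 10 genes on every array; circles, squares and triangles are replicates 1, 2 and 3, and the bar is the mean ± SD (n = 3). The 3 Dusp4 points of the arrays labelled induced (300 to 368) lie above the 3 noninduced ones (235 to 269), and for the other genes the groups overlap.

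Dusp4 encodes a nuclear phosphatase of ERK, JNK and p38. Its single probe set, 1428834_at, gave signals of 235, 269 and 257 on noninduced replicates 1 to 3 and 300, 368 and 323 on induced replicates 1 to 3. The lowest array labelled induced was thus above the highest noninduced array. Group means were 253.5 ± 17.3 and 330 ± 34.3 (SD, n = 3 each), 1.28-fold apart, with a log2 fold change of 0.36 (SE 0.091, 95% interval 0.16 to 0.56). Limma gave an adjusted p of 0.118, and an exact two-sided permutation test gave p = 0.1, the smallest that 3 against 3 arrays allow. The sign was positive under all 18 alternative settings, with adjusted p from 0.0459 to 0.642. It was past the threshold under 1 of them, centring each array on its median, which gave 0.45 (adjusted p = 0.0459) and moved the median of all tested probe sets from -0.01 to 0.08. Induced replicate 1, set against the 3 noninduced arrays with which it shared the run, gave 0.23.

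Dusp5 encodes a nuclear phosphatase that acts on ERK and is itself an early transcript of the cascade. Its signals were 216, 243 and 231 on the noninduced arrays and 178, 232 and 120 on arrays labelled induced. The noninduced arrays lay close together, and those labelled induced were spread out: replicate 3 was the lowest of all 6 and replicate 2 lay inside the noninduced range. The means were 230 ± 13.9 and 177 ± 56.3 (SD, n = 3 each). On the log2 scale the arrays labelled induced were -0.39 apart from the noninduced ones (SE 0.169), with a limma adjusted p of 0.310 and an exact two-sided permutation p of 0.3. Leaving out induced replicate 3 gave -0.16 and leaving out induced replicate 2 gave -0.60, so those arrays set its size, and it was -0.34 for induced replicate 1 within its fluidics run.

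Dusp6 encodes the cytoplasmic phosphatase most specific for ERK, and its transcript is a common readout of the pathway. Signals of 355, 337 and 321 on the noninduced arrays stood against 265, 356 and 310 on those labelled induced. Replicates 1 and 3 of the latter lay below all noninduced arrays and replicate 2 above all of them by a narrow margin, so the groups overlapped. The difference on the log2 scale was -0.12 (SE 0.099 and a 95% interval of -0.34 to 0.09, limma adjusted p = 0.606); it was -0.33 for induced replicate 1 within its own fluidics run and -0.02 without that array.

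Dusp1, the phosphatase also known as MKP-1 and an immediate early gene of serum and stress, was at 494, 518 and 661 on the noninduced arrays and 503, 575 and 586 on those labelled induced. Noninduced replicate 3 was the highest of the 6 arrays. Group means were 558 ± 89.85 and 555 ± 44.8 (SD, n = 3 each), and the log2 fold change was 0.00 with a 95% interval of -0.22 to 0.22, or 0.859- to 1.165-fold (limma adjusted p = 0.999). Its sign changed with the scaling, to -0.01 after quantile normalization. The 4 phosphatase genes of the set thus lay at 0.36, 0.00, -0.12 and -0.39 in the order Dusp4, Dusp1, Dusp6 and Dusp5; only the intervals of Dusp4 and Dusp5 left out 0, neither passed the adjusted test, and differences between genes were not tested.

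Promoter windows are shown for 3 phosphatase genes, Dusp1 and Dusp5 because each holds one of the elements searched for and Dusp6 for comparison, since it holds none of them. RefSeq (assembly GRCm38.p6) gave a window for 6 of the 10 genes, Dusp1, Dusp5, Dusp6, Spry1, Spry2 and Etv5; Dusp4, Spry4, Etv4 and Phlda1 had no entry in the table. The 250 bases before the annotated start are printed 5′ to 3′ on the gene's strand for Dusp1 (chr17:26508473-26508722, minus strand), Dusp5 (chr19:53528895-53529144, plus strand) and Dusp6 (chr10:99262981-99263230, plus strand). Capitals mark a cyclic AMP response element (CRE, TGACGTCA) in Dusp1 and a pair of adjoining CArG boxes, the core of the serum response element, in Dusp5.
Dusp1: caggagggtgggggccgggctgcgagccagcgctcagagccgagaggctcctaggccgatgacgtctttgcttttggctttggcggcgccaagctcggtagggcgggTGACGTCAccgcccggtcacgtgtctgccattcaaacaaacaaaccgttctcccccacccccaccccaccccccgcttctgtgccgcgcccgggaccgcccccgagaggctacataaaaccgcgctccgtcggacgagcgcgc
Dusp5: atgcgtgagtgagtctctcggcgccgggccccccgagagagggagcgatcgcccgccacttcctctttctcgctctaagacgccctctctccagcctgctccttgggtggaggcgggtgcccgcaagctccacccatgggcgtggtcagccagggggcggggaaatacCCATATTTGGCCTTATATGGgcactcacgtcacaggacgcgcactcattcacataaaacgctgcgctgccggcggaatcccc
Dusp6: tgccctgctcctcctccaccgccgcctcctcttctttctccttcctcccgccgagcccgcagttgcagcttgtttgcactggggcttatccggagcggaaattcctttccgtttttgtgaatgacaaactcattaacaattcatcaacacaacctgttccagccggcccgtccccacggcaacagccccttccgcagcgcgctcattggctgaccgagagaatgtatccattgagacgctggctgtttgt

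Both strands of the 7 member windows (Etv5 has a pair) were searched for the CRE (TGACGTCA), an ETS site (CCGGAAGT), an AP-1 site (TGACTCA) and the CArG box. The CRE was found in the Dusp1 window alone, 143 to 136 bases before the start, and CArG boxes in the Dusp5 window alone, 82 to 73 and 72 to 63 bases before it. Over all 32851 windows of this length in the table, 1.55% held the CRE, 2.88% the ETS site, 4.46% the AP-1 site and 1.47% a CArG box. The ETS and AP-1 letters were in none of the 7 member windows. Beside these windows stand the differences given above, 0.00 for Dusp1, -0.39 for Dusp5 and -0.12 for Dusp6, none past the test; the part of the motifs was not tested.

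Spry2 encodes a Sprouty protein that is itself phosphorylated when growth factor receptors are active. Its probe set 1436584_at gave 423, 415 and 350 on the noninduced arrays and 395, 398 and 408 on those labelled induced. The arrays labelled induced lay within the noninduced range, and their own spread was the narrower one. Means of 396 ± 40.2 and 400.3 ± 6.47 (SD, n = 3 each) corresponded to a log2 fold change of 0.02 (95% interval -0.16 to 0.19, limma adjusted p = 0.939). A second Spry2 probe set, 1421656_at, lay below the filter at 14.8 and 12.2 and was not tested.

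Spry1 was barely above the filter. Its mean signal was 31.1 for the noninduced group and 17.5 for the induced one, so it passed the filter of about 22.6 through its noninduced values. That selection favours a negative difference, and Spry1 is nonetheless counted among the 12 tested probe sets and the 7 negative ones. Its only probe set gave 18.7, 37.8 and 36.8 on the noninduced arrays and 24.3, 22.6 and 5.64 on those labelled induced. The groups overlapped because noninduced replicate 1 lay below induced replicates 1 and 2. The log2 fold change of -0.52 had an SE of 0.281 and a 95% interval of -1.13 to 0.10 (limma adjusted p = 0.420). It was -0.23 without induced replicate 3, and -0.20 for induced replicate 1 within its fluidics run.

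Spry4 had 4 probe sets. The brightest, 1440867_at, gave 71.4, 59.7 and 37.3 on the noninduced arrays and 22.2, 46.4 and 51.7 on those labelled induced, so induced replicate 1 lay below all noninduced arrays, noninduced replicates 1 and 2 lay above all arrays labelled induced, and the groups overlapped. Its log2 fold change was -0.38 (SE 0.242, limma adjusted p = 0.502); without induced replicate 1 it was -0.12, and that array alone against the noninduced ones gave -0.89. The other tested probe set, 1445669_at, was at -0.05, with signals of 26.6 to 37.6 and 24.2 to 38.9. Below the filter, 1422021_at was lower on all 3 arrays labelled induced (2.35 to 9.51 against 10.1 to 23.9) and 1422020_at ranged from 2.68 to 17.98 and from 3.27 to 18.1. The annotation gives these last the same sequence accession, and neither was tested.

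The ETS factor genes were dim in these myoblasts, with mean signals under 100. The brighter Etv4 probe set, 1423232_at, gave 46.8, 48.01 and 46.8 on the noninduced arrays and 45.98, 64.3 and 51.9 on those labelled induced. The noninduced arrays agreed to within 1.03-fold, while those labelled induced spanned 1.40-fold. The log2 fold change was 0.14 (95% interval -0.20 to 0.48, limma adjusted p = 0.718) and -0.03 for induced replicate 1 within its fluidics run. The other Etv4 probe set lay below the filter, at means of 15.5 and 15.3.

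Etv5 had 3 probe sets, which did not point one way. The brightest, 1428142_at, gave 34.5, 29.5 and 46.9 against 32.1, 41.8 and 29.3, a log2 fold change of -0.07, and 1420998_at gave 33.3, 21.7 and 32.4 against 35.05, 25.7 and 30.4, or 0.05 (limma adjusted p = 0.906 and 0.941). In both of these the groups overlapped. The third, 1450082_s_at, fell just below the filter, which acts on mean log2 values, though its mean linear signal was 23.04. It gave 21.1, 15.6 and 17.1 against 22.8, 36.5 and 25.1, so that every array labelled induced was above every noninduced one. This probe set, with a log2 difference of 0.37, was not tested. The annotation gives it the same accession as 1420998_at, whose groups overlapped.

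Phlda1 has a single probe set, 1418835_at. It gave 645, 586 and 703 on the noninduced arrays and 659, 687 and 551 on those labelled induced. The highest of the 6 arrays was a noninduced one and the lowest was labelled induced, whereas among the remaining arrays those labelled induced were the higher, so the groups overlapped. Means were 645 ± 58.5 and 632 ± 71.75 (SD, n = 3 each), and the log2 fold change was -0.03 (95% interval -0.22 to 0.16, limma adjusted p = 0.909). That interval leaves out changes beyond 0.856- to 1.121-fold.

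**Figure D2:**
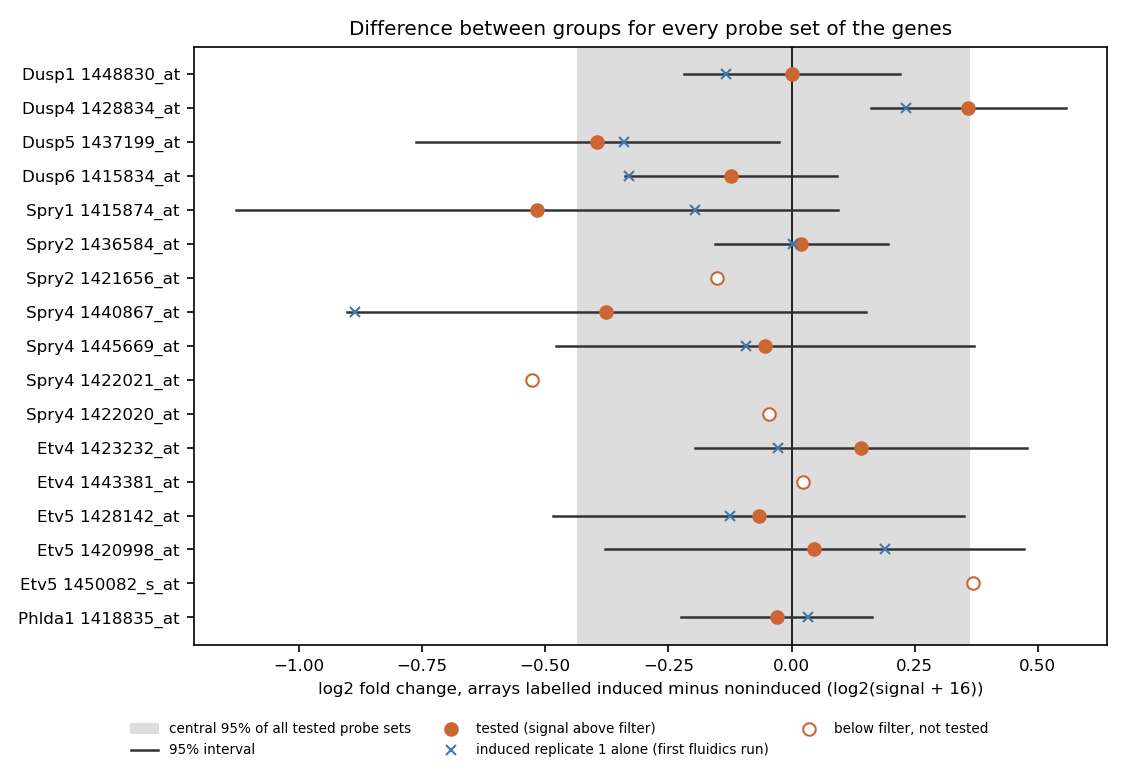
Log2 fold change (arrays labelled induced minus noninduced, on log2(signal + 16)) of all 17 probe sets, with 95% intervals for the 12 tested ones; crosses give induced replicate 1 set against the noninduced arrays in that run, open circles are probe sets below the filter, and the gray band holds the central 95% of all tested probe sets (-0.43 to 0.36). Dusp4 (0.36) lies near the upper edge of the band and Dusp5 (-0.39) near the lower one, and Spry1 (-0.52), which is dim, lies outside it.

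The arrays labelled induced differed among themselves in these genes. Of the 10 brightest probe sets, induced replicate 2 was above its group mean in 9, the highest of its group in 6 and the lowest in 0. Over all tested probe sets the shares for this array were 48.6%, 31.3% and 34.5%, in that order. Induced replicate 1, the array that shared a fluidics run with the noninduced ones, was the lowest of its group in 6 of 10, against 31.2% of all tested probe sets. In the related lists described further on, induced replicate 2 was the highest in 5 of 8 other phosphatases, 7 of 12 other ERK-following transcripts, 4 of 8 other inhibitors and 8 of 19 core genes. Induced replicate 1 was the lowest in 11 of 19 core genes, 5 of 8 other inhibitors, 4 of 8 other phosphatases and 4 of 12 other ERK-following transcripts. The last, 33.3%, is near the share over all tested probe sets, while the other lists also had raised counts. Induced replicate 2 was above its group mean in 57.9% to 66.7% of each list and the lowest in 21.05% to 37.5%. On both measures the lists stood closer to all tested probe sets than the 10 genes did. For Dusp5, Dusp6 and Etv4 the SD of the log2 values was 0.082, 0.070 and 0.016 on noninduced arrays and 0.44, 0.20 and 0.19 on those labelled induced. Spry2 and Dusp1 ran the other way, with 0.145 and 0.218 against 0.022 and 0.116. The genes share these arrays and are not replicates of one another, so the counts are a description with no test, made after the values were seen, and the part of the fluidics run in them was not tested.

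**Figure D3:**
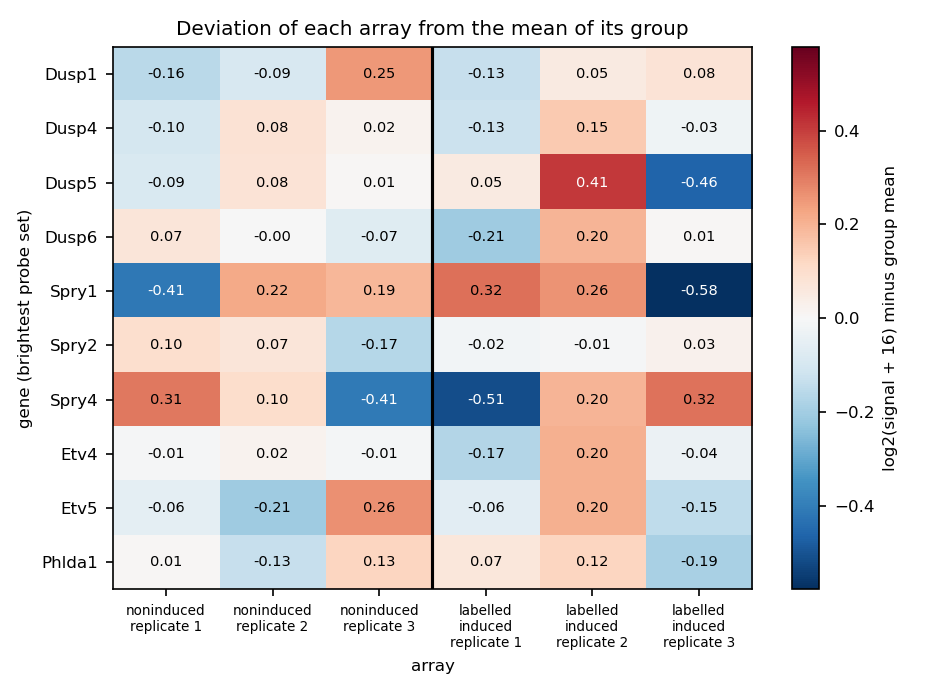
Deviation of each array from the mean of its group, in log2(signal + 16), for the brightest probe set of each gene; red is above and blue below the group mean. Induced replicate 2 is above its group mean for 9 of 10 genes (Spry2 is the exception), by 0.41 for Dusp5 and 0.20 for Dusp6. Over all tested probe sets it is above its group mean in 48.6%.

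The rest of the pathway was described through lists, each gene by its brightest probe set, and no listed gene passed an adjusted p of 0.05. In the Ras-ERK core, 19 of 26 genes had a probe set annotated to them alone and all 19 were tested; the rest were not analysed here. Of these, 11 were positive and 8 negative, with a median log2 fold change of 0.04, 1 with an unadjusted p under 0.05 in limma and 3 whose groups did not overlap, against 14.7% and 20.3% of all tested probe sets. The largest differences were 0.17 for Gab1, an adaptor of receptor tyrosine kinases, 0.14 for Elk3, an ETS factor partner of serum response factor, and 0.13 for both the Ras inhibitor neurofibromin, Nf1, and the Ras activator Sos2, which tie at this precision. The bright Ptpn11, the phosphatase SHP2 that passes the signal from receptors to Ras, was at 1192 ± 43.7 and 1166 ± 23.6 (SD, n = 3 each). Other probe sets of Elk3 ranged from -0.25 to 0.03, and those of Ptpn11 from 0.01 to 0.34.

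Other MAP kinase phosphatases were split as well. Of 8 tested of 9, 4 were positive and 4 negative (median -0.06), with 1 at an unadjusted p under 0.05 in limma and 2 with groups that did not overlap, against the same 14.7% and 20.3%. Dusp7, an ERK phosphatase of the cytoplasm, was at -0.19, Dusp2 at -0.17 and Dusp16, which prefers JNK and p38, at 0.16. The bright Dusp14 went from 515 ± 15.8 to 465 ± 18.3 (SD, n = 3 each), a log2 difference of -0.14 with a limma adjusted p of 0.331, and Dusp3 was at 0.09. Other tested probe sets ranged from -0.041 to 0.133 for Dusp7 and from -0.13 to -0.032 for Dusp3, the opposite sign.

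Among other inhibitors of receptor tyrosine kinase and Ras signalling, 8 of 10 were tested, 5 positive and 3 negative (median 0.08), with 3 at an unadjusted p under 0.05 in limma and 3 with groups that did not overlap, again against 14.7% and 20.3%. Errfi1, the feedback inhibitor of the EGF receptor also called MIG6, gave 1078, 1287 and 1303 on the noninduced arrays and 886, 996 and 919 on those labelled induced. The groups did not overlap, with induced the lower, and its second probe set was at -0.42. The log2 fold change was -0.38 (SE 0.076, limma adjusted p = 0.0685), which passed under 1 of 18 alternatives, without noninduced replicate 1 (-0.47, adjusted p = 0.0345; range over all 0.0345 to 0.318). Il17rd, the FGF receptor antagonist SEF, was at -0.47 with means of 32.7 and 19.4. On the arrays labelled induced it gave 26.9, 15.6 and 15.6, so it passed the filter of about 22.6 through its noninduced values. It is nonetheless 1 of the 3 in both counts above. Rasa2, a GTPase-activating protein of Ras, was at 0.32, and Spred1, a relative of the Sprouty proteins, at 0.21. The other tested probe set of Rasa2 was at 0.055, and those of Spred1 ranged from -0.088 to 0.175.

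Other transcripts known to follow ERK activity gave 4 positive and 8 negative values of 12 tested (of 15), with a median of -0.08. At an unadjusted p under 0.05 in limma there were 5, against 14.7% of all tested probe sets. The groups did not overlap in 5, against 20.3%. Both counts hold the same genes: Egr1, Fos, Epha4 and Ier2 (-0.16) were lower and Plaur (0.12) was higher. Over all tested probe sets, 7.27% were lower at that p and 10.6% lower without overlap, against 7.41% and 9.64% higher. Egr1, an immediate early zinc finger factor, gave 666, 620 and 628 on the noninduced arrays and 397, 392 and 520 on those labelled induced (log2 -0.54, limma adjusted p = 0.0515). It was lower past the threshold under 6 of 18 alternatives, with adjusted p from 0.0103, without induced replicate 3, to 0.293. Fos, its companion among the early genes, gave 62.1, 63.8 and 57.2 against 32.7, 30.4 and 44.3 (log2 -0.58, adjusted p = 0.146). Both were at their lowest on induced replicate 2, though close to their values on induced replicate 1. On induced replicate 2, Dusp4, Dusp5 and Dusp6 were at the highest of their group, as were 7 of the 12 tested genes of this list. The comparison was made after the values were seen, with no test. Epha4, an ephrin receptor, was at -0.54 (adjusted p = 0.118), and its other 3 tested probe sets ranged from -0.49 to -0.04. The bright Ccnd1, cyclin D1, and Hmga2, a chromatin protein, were at 0.06 and 0.11. Their other tested probe sets ranged from -0.053 to 0.04 for Ccnd1 and from 0.04 to 0.28 for Hmga2.

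**Figure D4:**
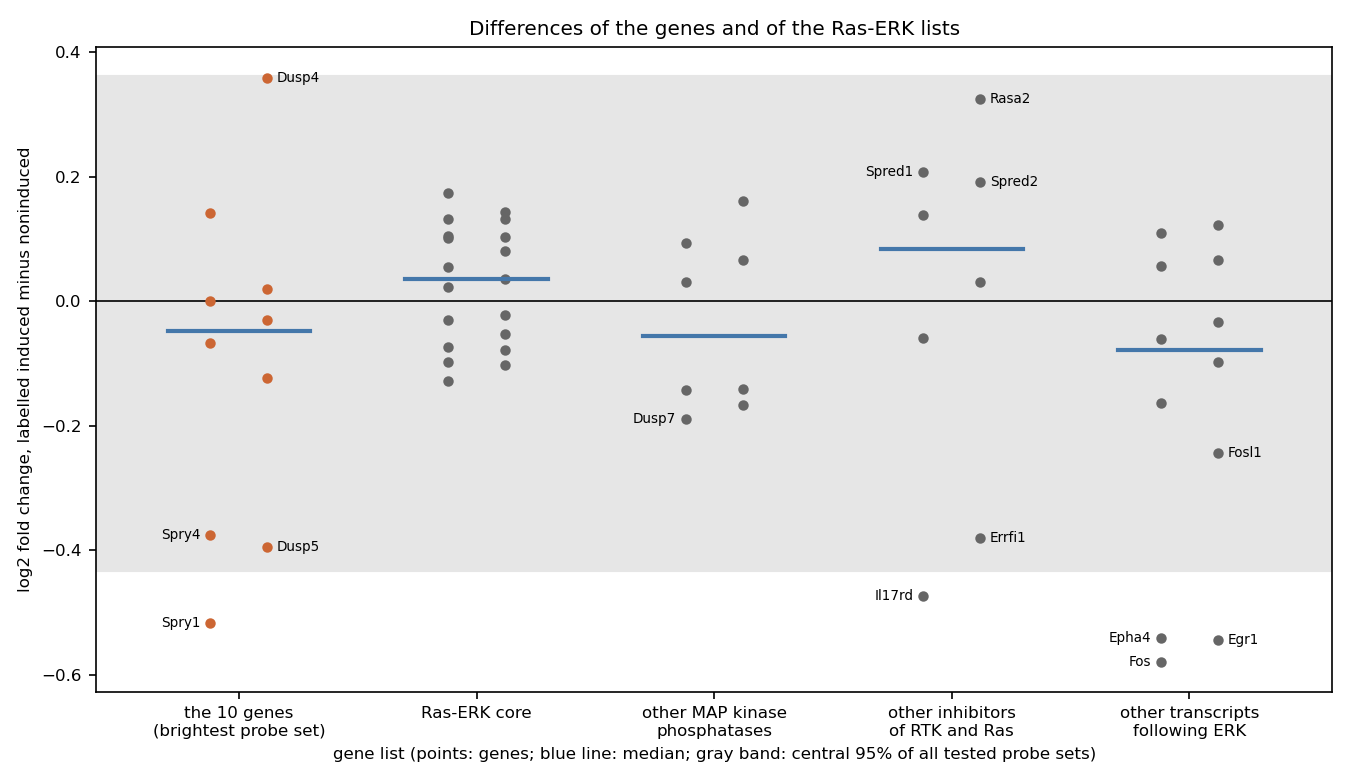
Log2 fold change (arrays labelled induced minus noninduced) of the 10 genes and of the tested genes of the Ras-ERK lists, each by its brightest probe set; the blue line is the list's median and the gray band the central 95% of all tested probe sets. Medians lie between -0.08 and 0.08, and Egr1, Fos, Epha4, Il17rd and Spry1 lie below the band, none of them past the adjusted test. Il17rd and Spry1 are dim, with means on the arrays labelled induced (19.4 and 17.5) below the filter signal of 22.6.

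For each of 3 genes, the probe sets of other genes with the most similar course over the 6 arrays were found by the root-mean-square difference of centred log2 values among 19824 candidates. For Dusp4 these were Ulk2, an autophagy kinase, Arhgap44 and Cwc22, a splicing factor, with differences of 0.036, 0.046 and 0.048. For Dusp6 they were Tomm40l, Steap3, a metalloreductase, and Bysl, a ribosome biogenesis factor, at 0.018, 0.031 and 0.032. For Phlda1 they were Sf3a2, a splicing factor, Chd1l, a chromatin remodeller, and Hspa4, a chaperone, at 0.027, 0.031 and 0.034. None of the 9 is another member of the set, but members were very few among the candidates, so their absence does not show whether members vary together. The likeness is a description over arrays with no test.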

How the data were processed

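RNA of 6 samples was biotin-labelled (per the labels' protocols) and put on 1 Mouse430_2 array each (per the file headers). The authors deposited 1 linear signal intensity for each probe set and array; GCOS 1.1.1 is the tool named, per the submitters' processing notes. Neither the settings of its algorithm nor detection calls are given in the sources at hand. After trimming, the mean was 150.0 on every array, so values are relative to the whole array. Other deposited records, of the instrument, gave hybridization and scan times, and the latter gave the scan order. The records name no fluidics run. A new run was counted where consecutive hybridization times lay more than 30 minutes apart, a gap chosen here.

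The 64 control probe sets were set aside. Values were taken to log2(value + 16), which understates changes where signals are low. The filter kept probe sets whose mean log2 value exceeded the median of all such means (a signal of about 22.6). Those 22518 were fitted in limma 3.58.1 under R 4.3.3 with lmFit and trended eBayes; p-values were adjusted by Benjamini-Hochberg over all of them, with a threshold of 0.05. The steps were tested on simulated data. A list gene stands with its brightest probe set. Named are all 10 members, Itga7, defining markers, the nearest probe sets to Dusp4, Dusp6 and Phlda1, and, per list, the 3 largest differences and 2 highest signals. Ier2 and Plaur were named besides, to give the directions in a count, after their values were seen. Members and lists were chosen with earlier results of these data known. Alternatives covered scaling, filter, pseudocount, variance model, array weights, replicate and fluidics blocks, the first fluidics run alone and each array left out; for Itga7 and the lists they were added after the data were seen.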

Additional observations from a re-analysis of the deposited data

How the results depend on the processing

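Of 210 values computed for the 12 tested probe sets under 18 alternatives, 182 kept their sign and their side of the threshold, 27 changed sign, none of them past the test, and 1 passed it. The count of member probe sets past the test was 0 under 17 alternatives, the replicate block among them, and 1 after median centring (Dusp4, 0.45). The cause of the changes below was not tested. Dusp1 (0.00) was at -0.014 after quantile normalization, -0.0 with a pseudocount of 64, -0.039 with array weights and -0.133 with a fluidics block or in the first run alone; leaving out 1 array gave -0.079 to 0.125. With the same run settings Etv4 was at -0.028 and Phlda1 at 0.034. Quantile normalization gave 0.034 for Spry4 1445669_at and 0.01 for Etv5 1428142_at, and median centring gave 0.04, 0.027 and, for Phlda1, 0.063. Leaving out 1 array gave -0.176 to 0.049 for Spry4 1445669_at, -0.17 to 0.064 for Etv5 1428142_at, -0.079 to 0.12 for Etv5 1420998_at, -0.096 to 0.063 for Phlda1 and -0.064 to 0.067 for Spry2.

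The 45 probe sets past the test over the whole array became 306 after median centring, 1 with no filter, 103 with a filter at the 75th percentile, 73 with a pseudocount of 64, 76 with robust moderation, 88 with array weights, and 0 without a variance trend, with a fluidics block and in the first run alone. Leaving out 1 array gave 1 to 58 (1 without noninduced replicate 2, 9 without noninduced replicate 3, 2 without induced replicate 1 and 11 without induced replicate 2). The replicate number as a block gave 7, but it did not pair the arrays: deviations of same-numbered arrays correlated at 0.0127, -0.062 and -0.0053, and 0 of 3 numbers matched best with their own.

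List medians after median centring were 0.129 for the Ras-ERK core, 0.038 for the other phosphatases, 0.178 for the other inhibitors and 0.015 for the other ERK-following transcripts. In both fluidics settings the core was at -0.059 and the other inhibitors at -0.006, values that rest on induced replicate 1 alone. The other phosphatases were at -0.141 with no filter and 0.066 with the filter at the 75th percentile. Leaving out 1 array gave -0.033 to 0.052 for the core, -0.046 to 0.01 for the other phosphatases and -0.014 to 0.196 for the other inhibitors. The count past the test was 1 in place of 0 for the other ERK-following transcripts (Egr1) after quantile normalization, with the filter at the 75th percentile, a pseudocount of 64, robust moderation, array weights and without induced replicate 3, so that leaving out 1 array gave 0 to 1; for the other inhibitors it was also 0 to 1 (Errfi1, without noninduced replicate 1). With 3 arrays a group, the dim Spry1, Spry4, Etv4 and Etv5 have wide intervals.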
